A study of Canis lupus familiaris with 14 samples.

Results

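The genes described here encode the proteins of the mitochondrial ribosome. They were taken as every gene on the Affymetrix canine genome array whose single annotated symbol starts with MRPL or MRPS followed by a number. There were 73 such genes, 47 with MRPL and 26 with MRPS symbols, of 15115 genes with 1 symbol. They were measured by 162 probe sets, and 58 of the 73 genes had more than 1 probe set.

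The 10 lymphoma arrays each hold RNA from a fine needle aspirate of a companion dog's lymph node. Of these, 7 were labelled B-cell lymphoma (RB07 and RB10, both Boxers, NE42, a Labrador Retriever, NE41, a Boxer/Pitt Bull Terr. Mix, RB03, a Pointer, FS21, a Pitt Bull Terrier/Lab. Retriever Mix, and RB16, a Chesapeake Bay Retriever). The other 3 were labelled T-cell lymphoma (NE45, a Golden Retriever, FS25, a Boxer, and FS22, a Beagle). The 4 normal arrays hold RNA from lymph nodes of 3 colony Beagles, 0063, 2970 and 3024, and the last gave the nodes 3024l and 3024r. The labels call the normal material tissue, whereas the study's methods describe needle aspirates for both groups. No controlled treatment was applied, and per the study's methods the aspirates were taken before the trial drug. However, FS21, RB07, FS22 and FS25 came from dogs that had relapsed and that, per the study, had been given chemotherapy before the aspirate. Disease and origin of the dogs cannot be told apart, since all normal nodes came from a Beagle colony. The study drew 2 classes of lymphoma from these same profiles, called E-J here (FS21, NE41, NE42, RB03, RB16 and FS22) and K-N (RB07, RB10, FS25 and NE45), so differences between classes are described without a test.

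Mitochondria carry their own genome, which encodes core subunits of the respiratory chain, and a ribosome of their own translates its messages. The RNAs of this ribosome come from the mitochondrial genome, while all of its proteins are encoded in the nucleus, made in the cytosol and imported. The large subunit (MRPL) joins amino acids and holds the exit tunnel, and the small subunit (MRPS) binds the message and decodes it. In human, MRPS30 and MRPS18A sit in the large subunit in spite of their symbols. Lymphoma cells arise from B or T lymphocytes, and lymphocytes that divide enlarge their stock of mitochondria and ribosomes.

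Signals were MAS5 values on a linear scale, with the trimmed mean set at 500 on every array, and are given on the log2 scale as the mean over a gene's probe sets. CD3E, which signals for the antigen receptor of T cells, had a log2 signal of 12.11 in RB07 and 12.54 in RB10, which are labelled B-cell, and 8.80 in FS22, which is labelled T-cell. CD79A, the B-cell counterpart, had 8.06 in RB07, 8.11 in RB10 and 10.09 in FS22, so these 3 arrays go against their labels. Node 3024l stood apart from 3024r, with 67.6% of 9216 genes lower in 3024l and a median difference of -0.40, so values that change with the choice of node are given beside the results.

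Most mitochondrial ribosomal protein genes had a higher mean in lymphoma than in normal nodes, by a small amount that passed the test for 1 gene. Of the 73, 70 had a signal of at least 100 on at least 3 of the 13 dogs and entered the test of 10 lymphomas against 3 normal dogs (3024l and 3024r counted once, as their mean). The mean was higher in lymphoma for 59 of the 70, against 48.6% of the 9216 genes tested. The median log2 difference was 0.37 over the 70 genes, against -0.02 over all genes tested, and 0.36 over all 73. MRPS15 was called higher at an adjusted p under 0.05 (limma, Benjamini-Hochberg over all genes tested) and no member was called lower. Over all genes tested, 3.66% were called, 1.09% higher and 2.57% lower, so 1 of 70 is near the background. At an unadjusted p under 0.05, 11 members were higher and 0 were lower, against 8.46% and 10.1% of all genes.

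**Figure D1:**
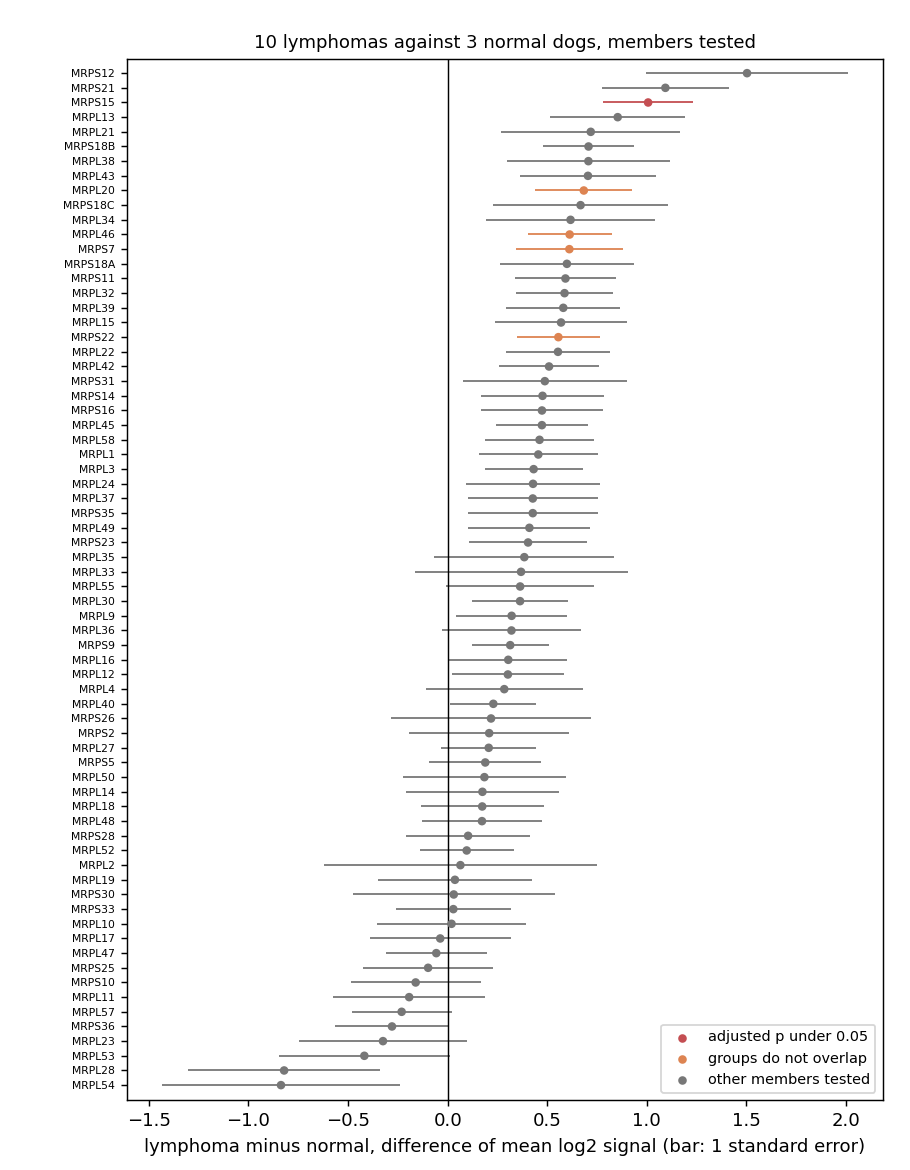
Difference in mean log2 signal of 10 lymphomas minus 3 normal dogs (x axis) for the 70 members tested (y axis), with bars of 1 standard error from limma. Of the 70 points, 59 lie above 0, 1 passed the test (red) and 4 others had no overlap between the groups (orange).

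The median was above 0 on each lymphoma array. The median over all 73 genes of the difference from the mean of the normal dogs was lowest in NE45, at 0.16, and highest in FS21, at 0.67. On the normal arrays it was 0.04 in 0063, 0.01 in 2970, -0.22 in 3024l and 0.10 in 3024r, below each lymphoma array. The normal arrays make up this baseline, which in part holds them near 0. The plain median log2 signal over the 73 genes did overlap, with 8.98 to 9.34 on the normal arrays. It was 9.08 in NE45, 9.11 in FS25 and 9.34 in RB03, and higher in the other lymphomas. FS21 had 66 of the 73 genes above the normal mean and NE45 had 43. In bulk samples such as these, fewer cells of a type and less RNA per cell cannot be told apart.

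Marker genes of other cells moved with the same contrast. Of 8 myeloid markers tested, 6 were called lower in lymphoma and 0 had a higher mean, against 2.57% called lower over all genes. Their summed signal ranged from 1335 to 6388 over the lymphoma arrays, against 18081 to 54051 over the normal arrays. Sums of linear signals are weighted to the brightest marker. MARCO, a macrophage scavenger receptor, had log2 signals of 4.00 to 10.73 on the lymphoma arrays and of 12.71 or more on the normal arrays. Of 6 stromal markers tested, 3 were called lower and 0 had a higher mean. In 5 of the 6, all lymphomas were below the normal dogs. COL1A1 was the exception, with 11.88 in RB07, above the 10.34 to 11.85 of the normal arrays. The sum over 7 markers was 439.9 to 4771 over the lymphoma arrays and 5463 to 7166 over the normal arrays. Of 3 endothelial markers tested, 2 were called lower and 0 had a higher mean. Over 5 markers the sum was 941 to 3262 on lymphoma arrays and 6973 to 11312 on normal arrays. Of 22 cell division genes, 5 were called higher, against 1.09% of all genes, and all 22 had a higher mean in lymphoma (median log2 difference 1.18). The part of these cells and of cell division in the members' shift was not tested.

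**Figure D2:**
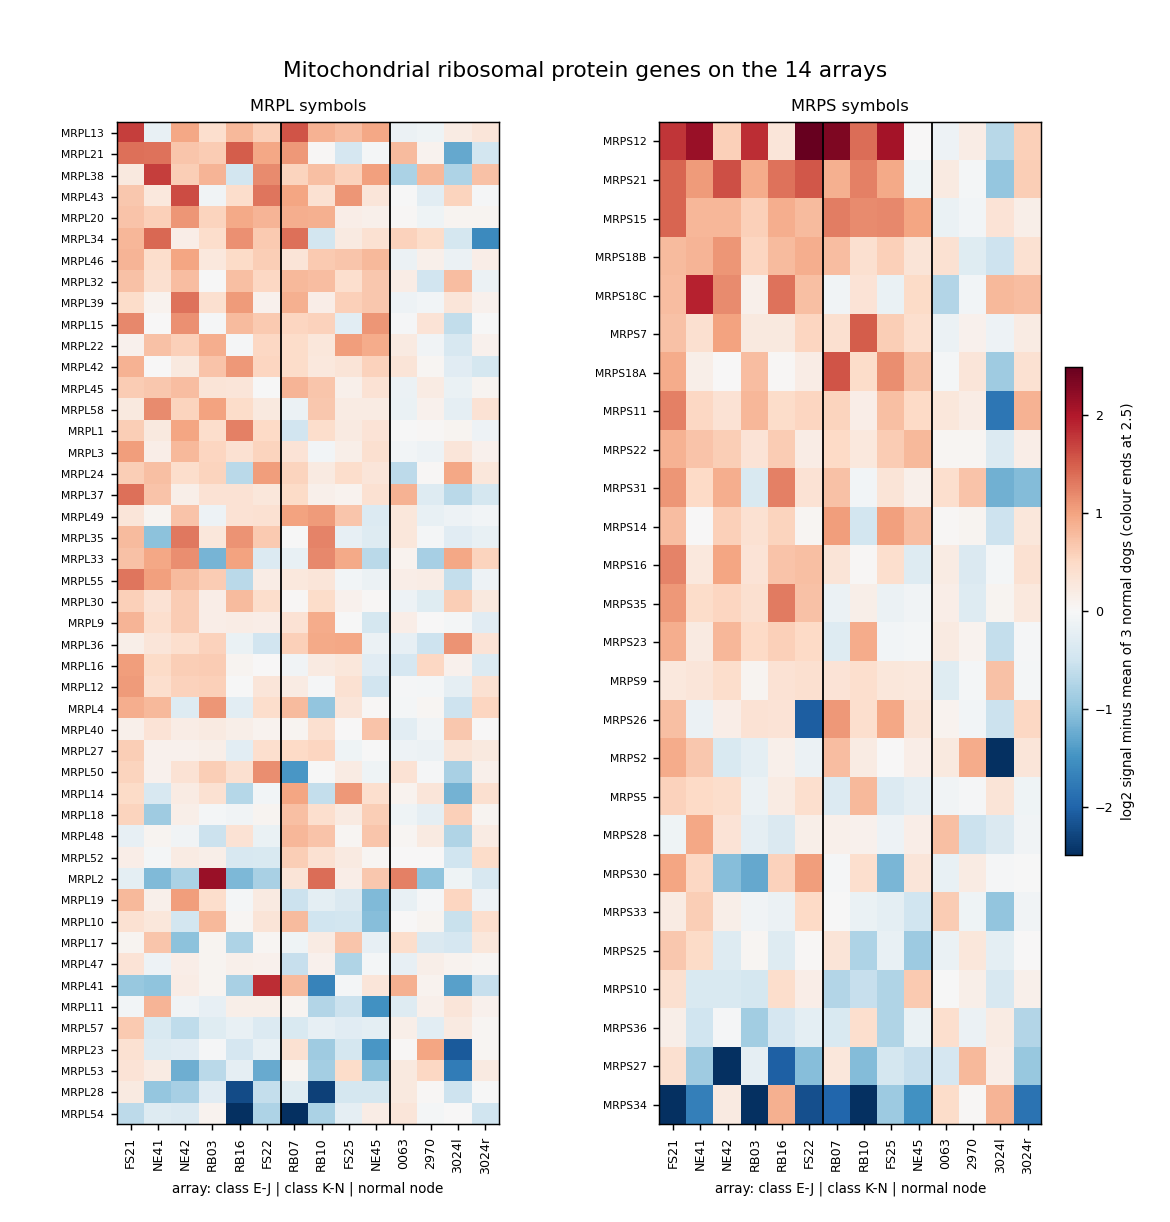
Log2 signal minus the mean of the 3 normal dogs (colour) for 47 MRPL and 26 MRPS genes (rows, ordered by the lymphoma minus normal difference) on the 14 arrays (columns). Red fills most of the upper rows on the lymphoma arrays, and the blue rows at the foot hold MRPS34, MRPS27, MRPL54 and MRPL28.

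Among the genes with MRPS symbols, 24 were tested, 21 had a higher mean in lymphoma, and the median difference was 0.45. MRPS15, a small subunit protein with a bacterial counterpart, had a lowest log2 signal of 10.23 in RB03, a median of 10.58 and a highest of 11.09 in FS21 over the 10 lymphomas. The normal arrays had 9.46 in 0063, 9.57 in 2970, 9.97 in 3024l and 9.78 in 3024r, so each lymphoma was above each normal node. The mean was 10.64 ± 0.26 in lymphoma (SD, n = 10) and 9.63 ± 0.22 in normal dogs (SD, n = 3), which differ by 1.01 on the log2 scale (standard error 0.22, adjusted p = 0.0308). The call rests on all 3 normal dogs, with an adjusted p of 0.132 without 0063, 0.174 without 2970 and 0.0787 without dog 3024. It was also lost with each array centred on its median (adjusted p = 0.0577), with 3024l alone for its dog (adjusted p = 0.0521), and with no filter on dim genes (adjusted p = 0.0884), while its log2 difference stayed between 0.90 and 1.16 over all alternatives.

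MRPS21, the counterpart of a small bacterial protein of the same subunit, ranged from 8.83 in NE45 to 10.55 in NE42, with a median of 10.10 over the lymphomas. The normal arrays had 9.17 in 0063, 8.90 in 2970, 7.97 in 3024l and 9.55 in 3024r. Only NE45 fell among the normal nodes, and the log2 difference of 1.09 missed the threshold (standard error 0.32, adjusted p = 0.0765). Without NE45 the difference was 1.23 and passed it (limma adjusted p = 0.0205), but that array was picked out by this gene's own value. MRPS21 stayed uncalled in 12 of the 13 fits with 1 dog left out, with limma adjusted p up to 0.279. Over 15 other alternatives it stayed uncalled in 11 and passed in 4. MRPS12, which in bacteria lines the decoding centre, had the largest mean difference of the members tested, 1.50 (standard error 0.51, adjusted p = 0.123). Its log2 signal was 6.40 in NE45, 6.69 in RB16 and 6.98 in NE42, inside the range of the normal arrays (5.69 to 6.98), and 7.79 to 8.90 in the other lymphomas. These values average a bright probe set, with a difference of 0.86, and a dim one, with a difference of 2.14. On the bright probe set 9 of the 10 lymphomas, NE45, RB16 and NE42 among them, were above all normal arrays, and over the alternatives run the gene's difference ranged from 0.57 to 1.72. MRPS12 was named after its values were seen, and so were MRPS7 and MRPL46 below.

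MRPS22, a protein of the mitochondrial small subunit with no bacterial counterpart, had signals of 10.31 in FS22 to 11.00 in FS21 in lymphoma with a median of 10.74. The normal arrays had 10.18 in 0063, 10.17 in 2970, 9.78 in 3024l and 10.28 in 3024r, so the groups did not overlap, though the difference of 0.56 was not called (standard error 0.21, limma adjusted p = 0.161). These values rest on 1 probe set. Another probe set, annotated to both MRPS22 and LOC477924, entered no gene. It had 8.54 in FS25 to 9.85 in FS21 in lymphoma and 6.98 in 3024l to 9.60 in 2970 on the normal arrays, so there the groups overlapped. MRPS7, which in bacteria helps to start assembly of the small subunit, ranged from 10.83 to 12.10 in lymphoma, with RB10 highest. Its normal arrays had 10.45 in 0063, 10.69 in 2970, 10.45 in 3024l and 10.79 in 3024r, all below each lymphoma (difference 0.61, standard error 0.27, limma adjusted p = 0.24).

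Among the genes with MRPL symbols, 46 were tested, 38 had a higher mean in lymphoma, and the median difference was 0.34, with 0 called and 4 higher at an unadjusted p under 0.05. MRPL20, the counterpart of a bacterial protein that is needed early in assembly of the large subunit, had 11.83 in NE45 and 11.86 in FS25 and 12.25 to 12.80 in the other lymphomas. The normal arrays lay close together, at 11.74 in 0063, 11.60 in 2970, 11.78 in 3024l and 11.77 in 3024r. The groups did not overlap, but NE45 and FS25 were nearer to the normal nodes than to the other lymphomas (difference 0.68, standard error 0.24, adjusted p = 0.14). MRPL46, a mitochondrion-specific protein of the large subunit, ranged from 11.25 in RB03 to 11.97 in NE42 in lymphoma, against 10.85 in 0063, 11.11 in 2970, 10.84 in 3024l and 11.16 in 3024r (difference 0.61, standard error 0.21, adjusted p = 0.129).

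MRPS15, MRPL46, MRPL20, MRPS22 and MRPS7 were the 5 members tested whose lymphomas were all above the normal dogs, while 0 members lay all below. Over all genes tested, 2.48% lay all above and 5.15% all below. Under the methods' t-test with the same adjustment 8 members passed (these 5, MRPS12, MRPS21 and MRPL13), as did 9.59% of all genes.

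**Figure D3:**
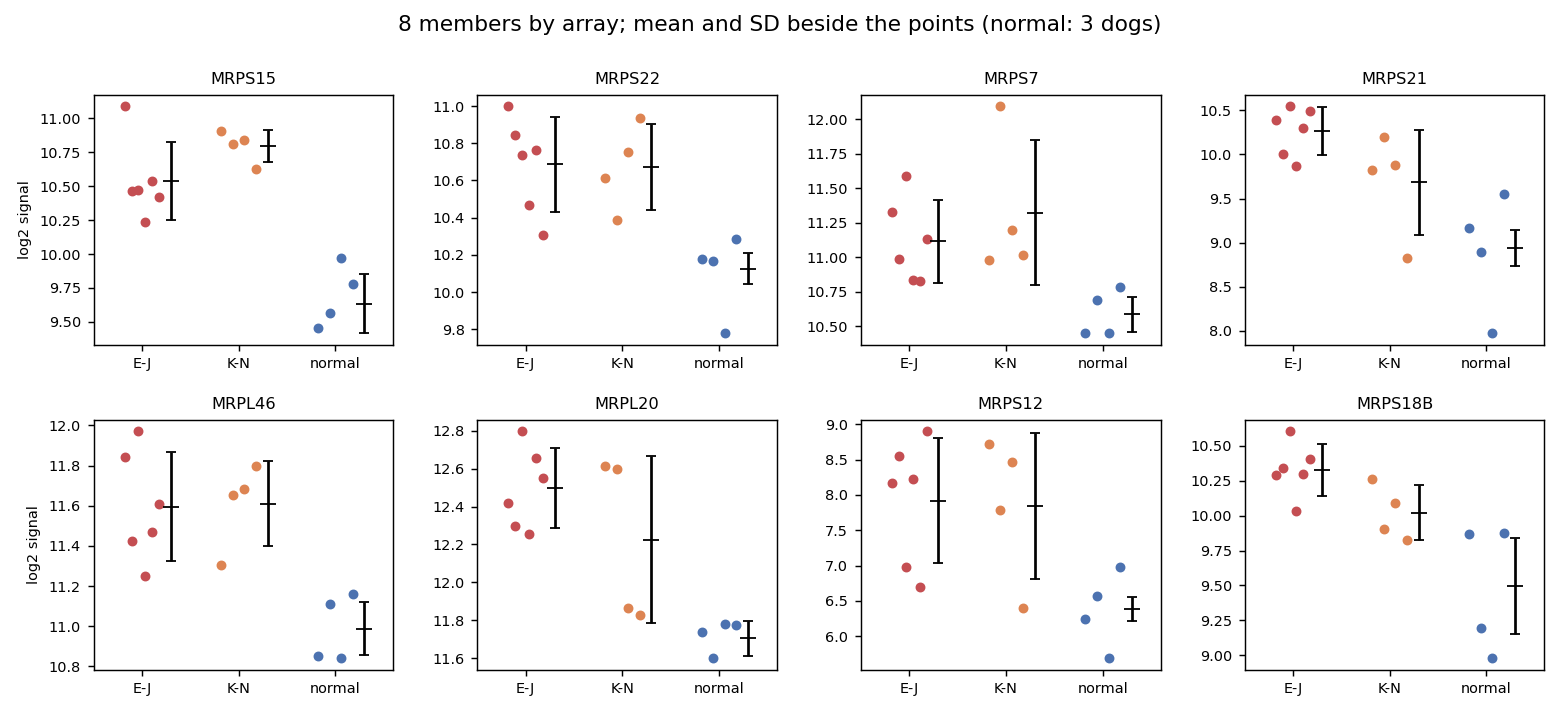
Log2 signal (y axis) of 8 members on each array of class E-J (6), class K-N (4) and normal nodes (4), with the mean and SD beside the points and the normal mean and SD taken over 3 dogs. MRPS15, MRPS22, MRPS7, MRPL46 and MRPL20 show no overlap of lymphoma with the normal nodes, and in MRPS21 NE45 alone lies among the normal nodes.

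The study compared 4 B-cell lymphomas (FS21, NE42, RB03 and RB16), chosen in part on these expression profiles, with 3 normal samples. Here they were set against 0063, 2970 and 3024r, since which node of dog 3024 the study took is not given in the sources used here. Of 68 members tested, 51 had a higher mean in the lymphomas, with a median log2 difference of 0.44, against -0.06 over the 8295 genes tested. The median over all genes moved to 0.06 after quantile normalization and to 0.09 after each array was centred on its median, and the members' median moved with it, to 0.54 and 0.59. One member was called higher and 0 lower, while 10.9% of all genes were called, 3.48% higher and 7.39% lower. Of the genes called, 32.0% were higher, and 43.2% after quantile normalization. In 19 members the 4 lymphomas were all above the 3 normal nodes and in 0 all below, against 13.7% and 18% of all genes tested.

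The member called was MRPS21, with 10.39 in FS21, 10.55 in NE42, 9.87 in RB03 and 10.30 in RB16, against 9.17 in 0063, 8.90 in 2970 and 9.55 in 3024r. Each lymphoma was above each normal node (difference 1.08, standard error 0.27, adjusted p = 0.0456). The call was lost without any one of the 7 arrays other than RB03, with adjusted p between 0.0745 and 0.193. It was also lost with 3024l in place of 3024r (adjusted p = 0.063), where the difference was 1.60. MRPS15 (difference 0.98, adjusted p = 0.0567) and MRPL20 (difference 0.83, adjusted p = 0.0574) were just short of the threshold, and MRPL1, an RNA-binding protein of the large subunit, and MRPL3, which in bacteria lies near the catalytic centre, followed with adjusted p of 0.0791 and 0.0987. MRPL1 and MRPL3 were named after their values were seen. At an unadjusted p under 0.05, 17 of the 68 members were higher and 0 lower, against 12.3% and 17.6% of all genes.

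The classes were set beside each other and beside the normal dogs by the median over each group of genes. The median difference from the normal dogs over the 73 genes was 0.45 in class E-J and 0.23 in class K-N, against -0.03 and -0.07 over all 15115 genes. Over 57 cytosolic ribosomal protein genes, which build the ribosome outside the mitochondrion, it was 0.65 in class E-J and 0.11 in class K-N. Over 56 genes of the respiratory chain and ATP synthase, several of whose partner subunits the mitochondrial ribosome makes, it was 0.49 in class E-J and 0.37 in class K-N. Over the 22 cell division genes it was 0.98 in class E-J and 1.27 in class K-N. Class E-J minus class K-N had a median of 0.10 over the mitochondrial ribosomal protein genes, 0.59 over the cytosolic ones, -0.02 over the respiratory chain and -0.40 over cell division.

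**Figure D4:**
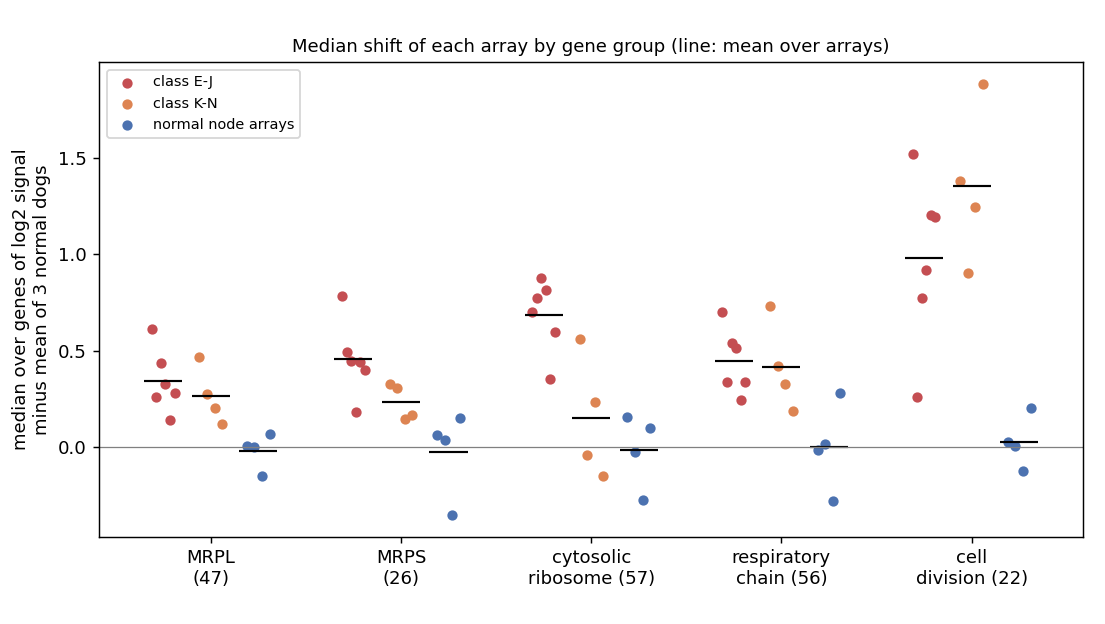
Median over the genes of each group of log2 signal minus the mean of the 3 normal dogs (y axis), 1 point per array, with lines at the mean over arrays, for 47 MRPL, 26 MRPS, 57 cytosolic ribosomal protein, 56 respiratory chain and 22 cell division genes. The cytosolic ribosomal proteins lie at or near the normal arrays in NE45 and RB10 (-0.15 and -0.04), where the mitochondrial ones have medians of 0.16 and 0.28 over all 73 genes.

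In 8 of the 10 lymphomas both the mitochondrial and the cytosolic ribosomal protein genes had a median above 0, and FS21 (0.67 and 0.70), RB16 (0.31 and 0.35) and FS25 (0.20 and 0.23) had nearly the same value for both. RB10 and NE45 were the exceptions. RB10 had a median difference of 0.28 over the mitochondrial and -0.04 over the cytosolic ribosomal protein genes, and NE45 had 0.16 and -0.15. RB03 had 0.29 over the mitochondrial and 0.82 over the cytosolic ones. Within the members, genes with MRPS symbols had medians of 0.18 to 0.78 on class E-J arrays and of 0.15 to 0.33 on class K-N arrays, and those with MRPL symbols 0.14 to 0.61 on class E-J arrays and 0.12 to 0.47 on class K-N arrays. These ranges overlap between the classes for both groups of symbols.

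In class E-J, 14 of the 73 genes were above all normal dogs on every array and 0 below, against 6.13% and 7.61% of all genes. Dim genes lower these shares, which were 9.38% and 10.9% over the 9216 genes tested over 13 dogs. Of the 14, 10 had MRPS symbols. In class K-N, 12 were above on every array and 3 below, against 6.45% and 9.35% of all genes and 8.95% and 12.4% of the 9216. The 3 below were MRPS34, MRPL28 and MRPL19, of which MRPS34 had a signal under 100 in every dog. In E-J against K-N, 2 genes, MRPL19 and MRPS35 (named after its values were seen), were above on every array and 0 below. The shares were 4.11% and 3.02% over all genes and 6.37% and 4.5% over the 9216, so the members' share was below both.

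The largest differences of class E-J minus class K-N were in MRPL19, MRPL21, MRPS18C and MRPL50. MRPL19, which in bacteria lies at the interface of the subunits, had 10.63 in FS21, 9.94 in NE41, 10.87 in NE42, 10.27 in RB03, 9.78 in RB16 and 10.05 in FS22, against 9.28 in RB07, 9.58 in RB10, 9.47 in FS25 and 8.71 in NE45. The normal arrays had 9.65 in 0063, 9.79 in 2970, 9.70 in 3024r and 10.36 in 3024l, so that 3 of them lay near the gap between the classes and 3024l lay among class E-J. The mean was 10.26 ± 0.42 in class E-J (SD, n = 6) and 9.26 ± 0.39 in class K-N (SD, n = 4). MRPL21, another large subunit protein, had a mean of 8.77 ± 0.38 in class E-J and 7.84 ± 0.65 in class K-N, with RB07 of class K-N at 8.76 among class E-J. The difference of 0.87 in MRPS18C came from 1 dim probe set (2.90), while its bright probe set had -0.04 and the remaining one -0.24. MRPL50, a mitochondrion-specific large subunit protein, differed by 0.87, and RB07 of class K-N, at 7.14, lay well below the next lymphoma, NE45 at 8.48.

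The differences furthest below 0 were in MRPL2, MRPS26, MRPS27 and MRPL48. MRPL48, a mitochondrion-specific large subunit protein, had a mean of 11.00 ± 0.30 in class E-J and 11.67 ± 0.35 in class K-N, with normal arrays at 11.15 in 0063, 11.32 in 2970, 10.34 in 3024l and 11.30 in 3024r. FS25 of class K-N, at 11.16, was within the range of class E-J, 10.56 to 11.46. MRPS26, of the small subunit, differed by -0.80, with FS22 of class E-J at 7.23 and the other lymphomas at 9.15 to 10.38. The value of FS22 came from a dim probe set, and on the bright one class E-J minus class K-N was -0.85 and all 10 lymphomas were above all normal arrays (difference 1.01). MRPL2, a core large subunit protein, had a mean of 5.54 ± 1.26 in class E-J and 6.50 ± 0.55 in class K-N, averaged over a bright probe set with a class difference of -0.21 and a dim one with -1.70.

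By the labels, 7 B-cell lymphomas were set against 3 T-cell lymphomas. Of 69 members tested, 0 were called by limma, with 1 higher and 0 lower at an unadjusted p under 0.05 (against 2.29% and 1.37% of all genes), and 0 were called by the methods' t-test. Over all 8567 genes tested, 0 (0%) were called. The median difference over the members was 0.15, with a range of -0.80 to 0.79 and standard errors of 0.21 to 0.66. In 0 members did the groups not overlap, against 0.432% (higher) and 0.444% (lower) of all genes. MRPL9, named after its values were seen, was the member at an unadjusted p under 0.05, with a mean of 10.73 ± 0.31 in B-cell lymphoma (SD, n = 7) and 10.13 ± 0.31 in T-cell lymphoma (SD, n = 3; limma adjusted p = 0.956). Without RB07, RB10 and FS22, whose markers go against their labels, 0 of 68 members were called, while 3.39% of all genes were. At an unadjusted p under 0.05, 6 members were higher and 0 lower there, against 12.1% and 6.86% of all genes. The arrays were left out on their own marker signals. The B-cell lymphomas that remain are all of class E-J, and the T-cell ones, FS25 and NE45, of class K-N. That contrast follows classes drawn from these same profiles, so its counts describe a selected split and are no independent test.

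Several members have roles beyond their place in the ribosome or are split over paralogs. MRPL12, which in human also binds the mitochondrial RNA polymerase, had signals of 8.47 to 10.03 in lymphoma with a median of 9.30, and 8.93 in 0063, 8.91 in 2970, 8.73 in 3024l and 9.34 in 3024r, a difference of 0.30. NE45 was below all normal nodes, and FS21, NE41, NE42 and RB03 were above all of them. The 3 MRPS18 paralogs occupy different places in the human ribosome. MRPS18B had 9.83 to 10.61 in lymphoma, against 9.87 in 0063, 9.20 in 2970, 8.98 in 3024l and 9.88 in 3024r, a difference of 0.71 (standard error 0.23, adjusted p = 0.103), with NE45 alone not above the normals. MRPS18A had a difference of 0.60 and MRPS18C one of 0.67, and class E-J minus class K-N was -0.64 in MRPS18A. RB07 and FS25 of class K-N had the highest MRPS18A signals, 12.17 and 11.75.

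MRPL28, a large subunit protein, had a lower mean in lymphoma. Its lowest log2 signals were 6.27 in RB10 and 6.37 in RB16, its median in lymphoma was 8.07, and its highest was 8.82 in FS21, while the normal arrays had 8.85 in 0063, 8.63 in 2970, 8.08 in 3024l and 8.58 in 3024r. FS21 lay among all normal nodes, and RB03, RB07, NE45 and FS25 were above 3024l only. The difference of -0.82 was not called. Its 3 probe sets had differences of -0.84, -0.60 and -1.02, the last in the dimmest, where RB16 and RB10 were lowest. MRPS36, whose protein is now known in human as a subunit of the alpha-ketoglutarate dehydrogenase complex, had a difference of -0.28, and its sign changed in 4 of 28 alternatives, those that gave less weight to its dimmest probe set. MRPL54, the large subunit protein with the lowest difference, -0.84, had 4.32 in RB16 and 4.42 in RB07 and 6.34 to 7.31 in the other lymphomas, against 6.62 to 7.42 on the normal arrays, so 2 dim values stand below all others.

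The brightest members were MRPL39, MRPL20 and MRPS9, with mean log2 signals over the 13 dogs of 13.14, 12.23 and 12.07. Signals of different probe sets do not rank transcripts. MRPS9, a conserved small subunit protein, was nearly level over the lymphomas, 11.90 to 12.28 (SD 0.11), while the normal arrays had 11.54 in 0063, 11.79 in 2970, 12.57 in 3024l and 11.78 in 3024r. MRPL39, whose human protein resembles an aminoacyl-tRNA synthetase domain, ranged from 12.78 to 14.05 in lymphoma against 12.56 in 0063, 12.62 in 2970 and 12.89 as the mean of dog 3024, a difference of 0.58. MRPL41, MRPS34 and MRPS27 had mean log2 signals of 3.50, 4.03 and 5.09 and a signal under 100 in every dog, so they were not tested and no fold is given. MRPS34 and MRPS27 were also among the 4 members with the largest SD over the lymphomas, 1.52 and 1.03, with MRPL2 (1.11) and MRPL54 (1.06). In MRPL2 the bright probe set had an SD of 0.54 and the dim one 2.12. Over the 70 members tested the median SD over the lymphomas was 0.46, against 0.68 over all genes tested.

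Probe sets of one gene did not always move together. In 40 of the 58 members with more than 1 probe set, all probe sets had the same sign in lymphoma minus normal. The range was widest in MRPL33 (-1.13 to 1.77 over 3 probe sets), MRPL21 (-0.36 to 1.88 over 4) and MRPL22 (-0.38 to 1.66 over 4). In MRPL33 the bright probe set, at a mean of 10.42, had a difference of 0.47, and the 2 dim ones had the widest differences. In MRPL21 the brightest probe set had a difference of 0.81, with 9.48 in NE45 and 10.59 to 11.74 in the other lymphomas, against 10.29 in 0063, 10.27 in 2970, 9.66 in 3024l and 10.07 in 3024r, so that NE45 lay below all normal nodes and the other 9 lymphomas above them.

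MRPS30 stood apart in this respect. Its first probe set had log2 signals of 6.84 in NE42, 6.99 in RB03 and 8.22 in FS25, while the other 7 lymphomas had 11.81 to 12.67 and the normal arrays 11.37 to 11.64. Its second probe set had 11.88 in NE42, 11.06 in RB03 and 11.15 in FS25, within the 11.00 to 12.07 of all lymphomas, and the third had 8.83, 8.88 and 7.95. Of 100 member probe sets with a signal of at least 200 on all normal arrays, it was the 1 with a lymphoma more than 3 log2 units below the lowest normal array, against 8.22% of 9691 such probe sets of all genes. The gene's difference was 0.03 over all 3 probe sets and 0.39 over the other 2, with 6 of 10 lymphomas above the normal dogs. The cause was not tested.

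**Figure D5:**
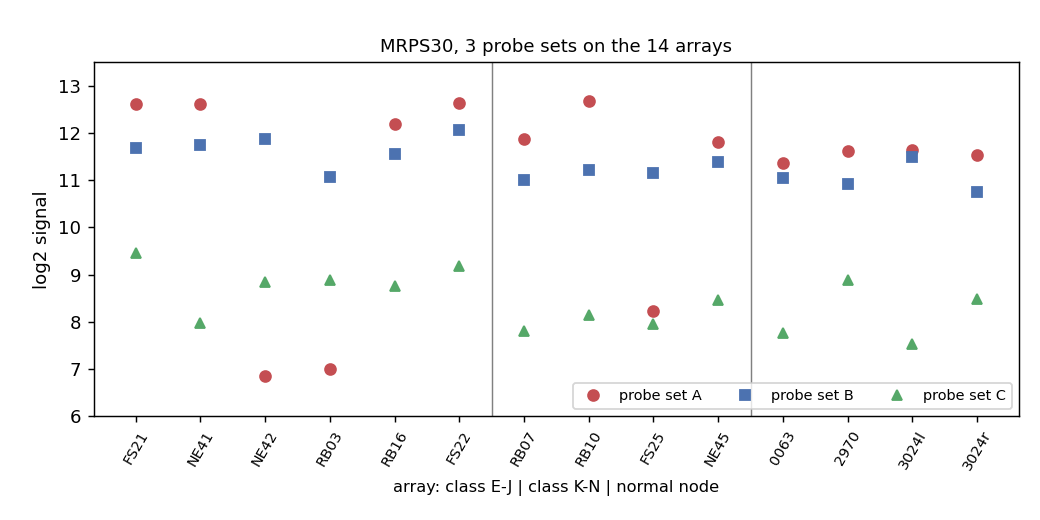
Log2 signal (y axis) of the 3 probe sets of MRPS30 on the 14 arrays (x axis; class E-J, class K-N and normal nodes from left to right). Probe set A lies at 6.84, 6.99 and 8.22 in NE42, RB03 and FS25 and above 11 elsewhere, while probe set B stays between 10.76 and 12.07.

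Genes that work with the mitochondrial ribosome were read from lists of the same fits. Calls of single genes on these lists, here and in the next paragraph, were not checked under the alternatives. Of 5 ribosomal proteins with other symbols, 1 was called higher in lymphoma, against 1.09% of all genes. It was DAP3, a GTP-binding protein of the small subunit, with a mean of 11.06 against 10.12 in normal dogs (difference 0.94, standard error 0.22, limma adjusted p = 0.0383). In the B-cell set DAP3 missed the threshold (limma adjusted p = 0.0718). Of 18 assembly factors tested, 0 were called in either direction and 10 had a higher mean (median difference 0.23, and -0.10 over all 22 found), with TFB1M, the methyltransferase of the small subunit RNA, at 0.91 (adjusted p = 0.0754). Of 14 translation factors 0 were called and 11 had a higher mean (median 0.35), led by OXA1L, which inserts new proteins into the inner membrane, at 0.68 (adjusted p = 0.0738). Of 13 mitochondrial aminoacyl-tRNA synthetases 0 were called and 10 had a higher mean, with a median of 0.47 (0.32 over all 15 found). At an unadjusted p under 0.05, 3 assembly factors, 4 translation factors and 4 synthetases were higher and 0 were lower, beside the 8.46% and 10.1% of all genes given above.

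Of 13 genes that copy, transcribe or process the mitochondrial genome, 0 were called in lymphoma against normal. At an unadjusted p under 0.05, 3 were higher and 1 lower, against 8.46% and 10.1% of all genes. In the B-cell set 12 of these genes were tested, and 2 were called higher and 1 lower. PNPT1, a mitochondrial RNA-degrading enzyme (difference 1.41, limma adjusted p = 0.0236), and TEFM, an elongation factor of mitochondrial transcription (1.27, limma adjusted p = 0.0358), were higher. POLG, the catalytic subunit of the mitochondrial DNA polymerase, was lower (-1.58, limma adjusted p = 0.0195). Over all genes tested in that set, limma called 3.48% higher and 7.39% lower, and the methods' t-test called 0.0964%. Of 7 regulators tested 0 were called in lymphoma against normal, with 2 higher at an unadjusted p under 0.05, beside the same 8.46% of all genes. MYC, which drives ribosome production, had a difference of 0.92 there (limma adjusted p = 0.0934). It was the 1 regulator of 6 tested that was called higher in the B-cell set (1.08, limma adjusted p = 0.029). In lymphoma against normal, 3 of 54 respiratory chain genes were called higher (NDUFC1 and NDUFB4 of complex I and UQCR10 of complex III) and 1 of 55 cytosolic ribosomal protein genes (RPS4X), against the 1.09% of all genes, and 0 of either group were called lower.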

How the data were processed

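RNA was amplified with WT-Ovation Pico, hybridised to Affymetrix canine arrays, and summarised per probe set by the authors with MAS5 (version not given in the sources used here). The deposited values are signal intensity on a linear scale, with a trimmed mean of 500 on each of 14 arrays, and which array was in which profiling batch is not given in the sources used here. The signals were taken to log2, and 29254 of 43035 probe sets with exactly 1 symbol were averaged into 15115 genes, since a probe set with several symbols cannot name one. Of the 73 members, 67 matched a RefSeq gene ID with the same symbol. The array's build was not given, so no coordinates or sequences are printed and the planned promoter motif search was not run.

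Genes with a signal of at least 100 on at least 3 dogs or arrays of a comparison were tested with limma 3.58.1 in R 4.3.3 (lmFit, eBayes, two-sided, Benjamini-Hochberg over all genes tested, threshold 0.05). The tests were run on simulated data first. The number of arrays limits the precision, and p-values measure the spread between these dogs. Members were named by rule (smallest adjusted p, brightest and dimmest, largest SD, largest class difference, known role, probe set disagreement), and others are named as chosen after their values were seen. The members and lists were chosen with earlier results of these data known. Alternatives changed the filter, scaling, pseudocount, floor, gene summary, test and arrays. Plots came from matplotlib 3.10.9 (Python 3.11.15).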

Additional observations from a re-analysis of the deposited data

Results flagged for a closer look

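A Dixon ratio test at the 95% level was applied to 88 sets of samples. They covered the members named by rule, MRPS12, MRPS7 and MRPL46, the members' median on each array, and 1 probe set with several symbols. Other members named after their values were seen were not included. Chance alone gives about 1 in 20, and 7 of these sets held a sample far from the rest. The B-cell lymphomas were taken both alone and within all lymphomas, so the sets are not independent. In MRPS21, NE45 had 8.83, with the nearest lymphoma at 9.83. In MRPS26, FS22 had 7.23, with the nearest at 9.15, a gap found in its dim probe set. In MRPL50, RB07 had 7.14, with the nearest B-cell lymphoma at 8.58 and the nearest of all lymphomas at 8.48. In MRPS9, RB03 had 11.90 and the nearest lymphoma 12.10, a gap that stands out only because the others lie so close together. The median over the members was 10.02 in FS21, against 9.61 in the nearest B-cell lymphoma. A probe set annotated to both MRPS22 and LOC477924, which entered no gene, had 6.98 in 3024l and 9.51 in the nearest normal array.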

How the results depend on the processing

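With 1 normal dog left out, the median member difference was 0.29 to 0.36 in lymphoma against normal, 0.39 to 0.43 in class E-J and 0.20 to 0.32 in class K-N, and it kept its sign under all alternatives run, moving by more than the spread between arrays only in class K-N with the brightest probe set, to 0.34. Counts of called members were not steady. In lymphoma against normal, 1 was called, but 0 with no filter, with centred arrays or with 3024l alone for its dog, 2 with log2(signal + 50), 3 with the mean of linear signals, 4 without class K-N, 6 with a floor of 100 on signals and 8 with the methods' t-test, and 0 to 2 with 1 sample left out. In the B-cell set, 1 was called, but 0 with no filter, with centred arrays, with the methods' t-test or with 3024l in place of 3024r, 2 with quantile normalization, 3 with a signal of at least 200 or with probe sets of a mean signal of at least 100 (an alternative chosen after seeing the data, as was leaving out a class), 4 with log2(signal + 50), 5 with the brightest probe set, 7 with the mean of linear signals and 8 with the floor, and 0 to 6 with 1 sample left out. B-cell against T-cell lymphoma gave 0 members throughout, 0 to 0 with 1 sample left out. The cause of these changes was not tested. Over all genes, 337 were called in lymphoma against normal, 10 without 2970 and 918 at that floor. Of the 337, 29.7% were higher, and 39.7% of those called after quantile normalization. In the B-cell set 902 were called, 8 with the methods' t-test and 1807 at the floor. The signs of MRPL19 and MRPS30, whose differences are near 0, each changed in 7 of 28 alternatives. No paired analysis was possible because no dog gave both a lymphoma and a normal node.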

Other observations

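On 3024l, 19 of 24 genes with MRPS symbols were below 3024r (median log2 difference -0.46), against 23 of 46 with MRPL symbols (median -0.03). Over the 9216 genes tested 67.6% were lower on 3024l. Among the 70 members tested the farthest apart were MRPS2, with 4.67 on 3024l and 7.66 on 3024r, most of it in the dimmer of its 2 probe sets, and MRPS11, with 5.95 on 3024l and 8.63 on 3024r. These are arrays of 1 dog, so no test was made. Both genes were named after their values were seen.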
